A study of Mus musculus with 6 samples.

Results

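Cell cycle genes were followed in mouse bone marrow cultured in medium from renal cancer cells: 19 genes of DNA replication, from Mcm2 to E2f2, and 21 genes of mitosis, from Mki67 to Nusap1. The 40 genes were taken by symbol, each matched 1 Ensembl identifier among the 45706 of the deposited table, and all 40 passed the filter on low counts. The series concerns clear cell renal cell carcinoma (ccRCC) in mice and its crosstalk with myeloid cells. Bulk RNA-seq was made from 4 marrow cultures in medium conditioned by ccRCC cells, 1 library each for the lines VpR83, VpR99, VpR126 and VpR2020, and from 2 marrow samples labelled as control medium (controls 1 and 2). The table's headings add Ctrl to VpR83, T1 to VpR99 and LT2 to VpR126, tags that no source used here explains, so a difference they may mark cannot be told apart from the line. Each line gave 1 library, and neither a line against another nor a line against control could be tested. The labels used here give no mouse strain, age or genotype for the marrow. The sample labels name control medium, whereas the design text of the series names marrow taken fresh as the comparison and the table heads the controls only as bone marrow. Differentiation in culture and the conditioned medium itself therefore cannot be told apart. Whether each library had its own animal or culture is not stated in the labels, so the spread between the 2 controls may be technical. The test took the 4 conditioned libraries, 1 per line, as 1 group. The spread behind the p-values and standard errors therefore includes the differences between lines and may lack those between animals. The library of VpR99 held 129120559 counts and the other 5 held 18629708 to 28055913, and no member had fewer than 148 counts in any library.

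Dividing cells copy their DNA in S phase and separate it in mitosis. E2F transcription factors, which RB proteins hold back until cyclin D and cyclin E kinases act, switch on genes for origin licensing, the replicative helicase and DNA building blocks. Mitotic genes follow later, driven by B-MYB, FOXM1 and the MuvB complex, and both sets are low in cells that have left the cycle. In marrow much of the division takes place in erythroid, granulocytic and lymphoid precursors, and macrophages grown from marrow can also divide.

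The letters of known binding sites were looked for around the genes' starts as RefSeq places them. Promoter windows of 300 bases, 250 before and 50 after a start, were present in the RefSeq table (build GRCm38.p6) for 33 members, 16 of replication and 17 of mitosis, and absent for Mcm4, Gins2, Ccne2, Ccna2, Kif20a, Tpx2 and Aurkb. A gene was counted where any of its windows held the letters on either strand. The letters TTTCCCGC, TTTGGCGC, TTTCGCGC or TTTGCCGC, forms of the E2F site, stood in 8 of 16 replication genes and 1 of 17 mitosis genes, against 2.6% of the 27025 genes in the table. The letters TTTGAA or TTCGAA, forms of the cell cycle homology region (CHR) that MuvB complexes bind, stood in 4 of 16 replication genes and 13 of 17 mitosis genes, against 21.7% of the table.

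The E2F cores TTCCCGC or TTGGCGC, which lie within TTTCCCGC and TTTGGCGC, stood in 9 of 16 replication and 3 of 17 mitosis genes (7.79% of the table). CCAAT boxes, which NF-Y binds, stood in 11 of 16 and 15 of 17 (41.1% of the table), and the GC box GGGCGG in 13 of 16 and 14 of 17 (38.2%). A match describes letters and not a site of binding. Windows of Cdc6 and E2f2, the replication genes with the largest fold changes that were found in the table, and of Cdc20 and Bub1, a mitosis gene called lower and one not called, are shown 5′ to 3′ on the gene's strand so that E2F and CHR letters can be compared. Capitals mark E2F, CHR and CCAAT letters on either strand.
Cdc6 (chr11:98907901-98908200, plus strand): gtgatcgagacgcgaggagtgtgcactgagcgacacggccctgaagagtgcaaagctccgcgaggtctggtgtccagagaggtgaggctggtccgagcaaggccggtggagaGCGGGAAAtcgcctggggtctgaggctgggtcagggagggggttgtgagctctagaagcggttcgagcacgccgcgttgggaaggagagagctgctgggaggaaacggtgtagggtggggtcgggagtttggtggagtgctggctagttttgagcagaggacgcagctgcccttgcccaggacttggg
E2f2 (chr4:136172024-136172323, plus strand): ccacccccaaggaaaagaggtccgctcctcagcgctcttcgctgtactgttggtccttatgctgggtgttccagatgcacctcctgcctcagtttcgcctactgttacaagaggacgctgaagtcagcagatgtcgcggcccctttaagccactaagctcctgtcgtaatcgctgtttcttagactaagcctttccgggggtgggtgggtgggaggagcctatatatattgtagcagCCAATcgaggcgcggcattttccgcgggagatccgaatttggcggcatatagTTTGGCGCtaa
Cdc20 (chr4:118437294-118437593, minus strand): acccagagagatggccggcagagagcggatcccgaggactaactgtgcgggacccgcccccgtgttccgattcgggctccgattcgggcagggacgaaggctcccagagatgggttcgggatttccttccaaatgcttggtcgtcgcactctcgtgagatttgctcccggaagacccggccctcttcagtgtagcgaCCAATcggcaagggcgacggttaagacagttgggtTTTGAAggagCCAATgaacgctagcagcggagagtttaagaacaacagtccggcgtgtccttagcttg
Bub1 (chr2:127831810-127832109, minus strand): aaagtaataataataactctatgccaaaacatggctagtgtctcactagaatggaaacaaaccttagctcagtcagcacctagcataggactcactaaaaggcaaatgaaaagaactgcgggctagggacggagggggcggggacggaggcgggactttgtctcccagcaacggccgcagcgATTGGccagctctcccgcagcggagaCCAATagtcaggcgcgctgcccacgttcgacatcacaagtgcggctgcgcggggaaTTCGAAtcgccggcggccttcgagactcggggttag

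Positions were counted from the RefSeq start, whose first base is 1. The gene coordinates given below come from GENCODE M21 and need not share that start. By them Cdc6 (from 98907801) begins before its window, and E2f2 (from 136172394) begins after the window shown. The window of Cdc6 held TTTCCCGC on the opposite strand at -138. The window of E2f2 held CCAAT at -13 and TTTGGCGC at 40, and a further start of the gene is not shown. The window of Cdc20 held TTTGAA at -18 between CCAAT boxes at -53 and -8. The window of Bub1 held TTCGAA at 15 and CCAAT boxes at -42 and, on the opposite strand, at -68. Birc5, the other mitosis gene called lower and the one with the larger fold change, is not shown. Its window held GC boxes and no E2F, CHR or CCAAT letters.

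The median replication gene stood below control under all 4 media, and the median mitosis gene was well below it in VpR126 and VpR2020 and close to it in VpR99. Single genes departed from this: in VpR99, 2 of 19 replication genes and 6 of 21 mitosis genes lay above both controls, as did 0 of 19 and 4 of 21 in VpR83. The values are log2 of CPM, the counts scaled to the library total and by TMM, a factor that corrects the totals for composition, minus the mean of the 2 controls. The median difference of the 19 replication genes was -0.87 in VpR83, -0.58 in VpR99, -2.32 in VpR126 and -1.90 in VpR2020. The median difference of the 21 mitosis genes was -0.29 in VpR83, -0.10 in VpR99, -2.02 in VpR126 and -1.35 in VpR2020. As a share of the control mean, the median replication gene stood at 19.9% in VpR126 and 26.7% in VpR2020, and the median mitosis gene at 24.5% and 39.2%. In VpR83 and VpR99 the median mitosis gene stood at 81.4% and 93.5% of control. The medians over all 15141 genes tested lay between -0.058 and -0.007 in the same 4 libraries.

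**Figure D1:**
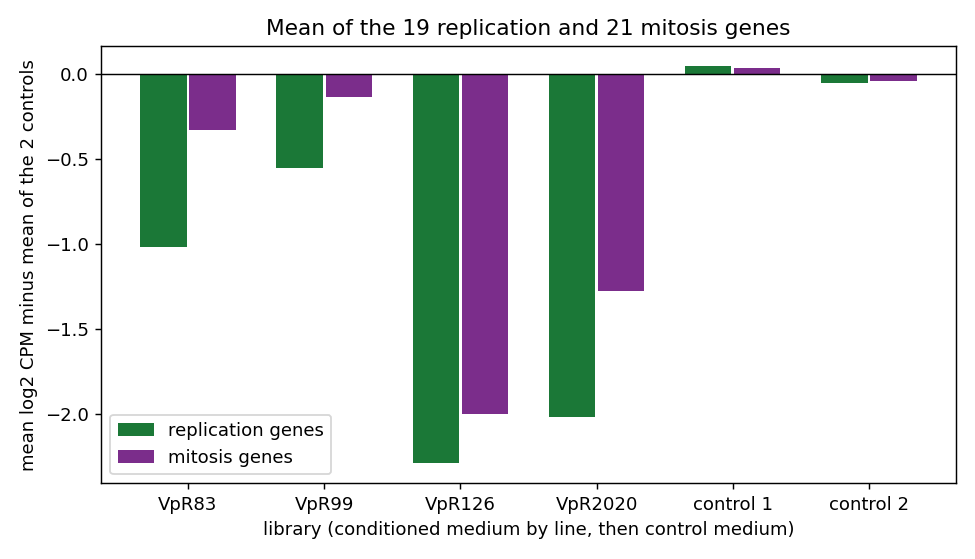
Mean log2 CPM of the 19 replication genes and the 21 mitosis genes in each library, minus the mean of the 2 controls, with conditioned libraries by line on the left and controls on the right. Each value is a single library without an error bar. The replication mean lies below the mitosis mean in each of the 4 conditioned libraries, at -1.01 against -0.33 in VpR83 and at -2.02 against -1.27 in VpR2020.

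The order of the lines was nearly the same for every member. All 40 members were higher in VpR83 and VpR99 than in VpR126 and VpR2020, which held for 24.6% of all genes tested. The order VpR99, VpR83, VpR2020, VpR126 from high to low was seen in 18 of 21 mitosis genes and 16 of 19 replication genes, against 11.8% of all genes. The members' levels are measured in the same 4 libraries, so these counts are not independent of each other. The range over the lines had a median of 1.89 on the log2 scale and was above 1 in 39 of 40 members, against a median of 0.783 over all genes tested. The members differed between the 2 controls by a median of 0.11 and at most 0.34 (Pcna).

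The 4 conditioned libraries were tested against the 2 controls with edgeR's quasi-likelihood test over all 15141 genes, and a gene was called at a Benjamini-Hochberg adjusted p below 0.05. Genes said to have fallen or risen are those called lower or higher, and the rest may still differ. Of the 40 members, 6 were called lower and 0 higher, where the background was 19.7% of all genes called lower, 22.5% called higher and 42.2% called in either direction. Of the replication genes 4 of 19 (21.1%) fell, and of the mitosis genes 2 of 21 (9.52%). The share of calls among the members was thus near or under the background. All 40 log2 fold changes were below 0, with a median of -1.345 for replication genes and -0.74 for mitosis genes, against -0.015 for all genes tested. All 4 conditioned libraries lay below both controls in 17 of 19 replication genes and 11 of 21 mitosis genes, against 33.3% of all genes, and above both in 0 members, against 32% of all genes.

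The count of calls depended on single libraries. Without control 1 or without control 2, 0 members were called by edgeR, although 3 and 2 replication genes and 0 mitosis genes were lower at an unadjusted p under 0.05. Over all genes, 14% were called without control 1 and 14.3% without control 2, against 42.2% with all 6 libraries. The members' count was 3 without VpR83, 18 without VpR99, 8 without VpR126 and 2 without VpR2020, all of them lower. Over all genes 34.9%, 44.2%, 46.5% and 34.3% were called in either direction. Called lower were 2326 of 15037, 3152 of 15044, 3374 of 15107 and 2282 of 15181 genes in the same order. Without the low-count filter 1 member was called, where 20.3% of all genes were called and 2845 of 29681 were lower. DESeq2 called 38.9% and limma voom 42.2% of all genes, with 3588 of 19522 and 3245 of 15141 lower. Higher calls were 0 in edgeR, in DESeq2 and in limma voom, and 0 members were higher at an unadjusted p under 0.05. DESeq2 called 10 replication and 3 mitosis genes lower, and limma voom 8 and 2. The share of all genes at an unadjusted p under 0.05 was not counted, here or for the lists below.

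Marker genes of marrow cell types moved with the same contrast. The background for the counts here and in the next paragraph was 19.7% of all genes called lower and 22.5% called higher. All 14 erythroid markers fell, and their summed level was 0.519 to 5.24 CPM in conditioned medium, against 2773 to 6107 CPM in the controls, with Slc4a1, Car1, Rhag, Kel and Trim10 at 0 in all 4 conditioned libraries. Of 8 neutrophil precursor markers 3 fell (37.5%), and all 8 had log2 fold changes below 0. The sum of the 8 was 546 CPM in VpR83, 2652 in VpR99, 594 in VpR126 and 439 in VpR2020, against 4329 and 4137 CPM in the controls. Of 8 stem and progenitor markers 6 fell (44.4 to 109 CPM in conditioned medium, against 412 to 440 CPM in the controls), as did 7 of 10 B cell precursor markers (44.8 to 337.0 CPM, against 969 to 1148 CPM). All 11 macrophage markers rose, with sums of 15780 to 29170 CPM in conditioned medium and 475 to 495 CPM in the controls. The part of this change of cell types in the members' values was not tested. Fewer cells of a type and less RNA per cell cannot be told apart in bulk samples.

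The remaining marker lists were as follows. Of 10 late neutrophil markers 8 fell (3318 to 16960 CPM in conditioned medium, against 85080 to 92140 CPM in the controls), and all 10 T and NK cell markers fell (2.89 to 11.2 CPM, against 97.5 to 101 CPM). Of 7 epithelial markers, which tumour cells carried over with the medium could add, 4 were tested and 2 fell, with sums of 3.54 to 17.96 CPM in conditioned medium and 18.8 to 21.4 CPM in the controls, and Krt8 and Krt19 at 0 in all conditioned libraries.

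Below, the values of the conditioned libraries follow the order VpR83, VpR99, VpR126, VpR2020, then controls 1 and 2. Fold changes are log2 values from edgeR with their standard errors, conditioned over control. Coordinates are of build GRCm38.

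The helicase genes Mcm2 to Mcm7 encode the ring that unwinds DNA at the fork, and Mcm7 was the member of this group called lower. Mcm7 (chromosome 5, 138164583 to 138172422) had 121, 163, 48.8 and 61.4 CPM in the conditioned libraries, against 383 and 378 CPM in the controls. The groups did not overlap, and VpR126 was lowest. The means were 98.5 ± 53.3 CPM in conditioned medium (SD, n = 4) and 380.4 ± 3.49 CPM in control medium (SD, n = 2), at -1.95 ± 0.47 on the log2 scale (edgeR adjusted p = 0.0179). Its call was lost, with the edgeR adjusted p in parentheses, for Mcm7 without control 1 (0.0905), control 2 (0.0894) or the low-count filter (0.0529). Exons of Ap4m1 and Cops6 on the other strand overlap Mcm7, and reads cannot be told apart there unless the counting used strand, which no source used here states.

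The other helicase subunit genes were not called. Mcm2 had 117, 156, 40.9 and 53.4 CPM in the conditioned libraries, against 254 and 212 CPM in the controls. Mcm3 had 184, 216, 73.00 and 95.1 CPM in the conditioned libraries, against 289 and 295 CPM in the controls. Mcm4 had 109.6, 159, 48.5 and 58.5 CPM in the conditioned libraries, against 204 and 184 CPM in the controls. In each of these the conditioned libraries lay below both controls, VpR99 closest to them. Mcm5 had 163, 216, 57.9 and 64.01 CPM in the conditioned libraries, against 356 and 337 CPM in the controls. Mcm6 had 217, 267, 71.5 and 99.1 CPM in the conditioned libraries, against 373 and 359 CPM in the controls. The groups did not overlap for these either. The log2 fold changes were -1.34 for Mcm2, -1.04 for Mcm3, -1.04 for Mcm4, -1.47 for Mcm5 and -1.16 for Mcm6, with edgeR adjusted p of 0.0795, 0.0959, 0.115, 0.0693 and 0.112 in that order. Without VpR99, Mcm2, Mcm3, Mcm4 and Mcm5 were called lower. Upper-quartile scaling called Mcm2, Mcm3 and Mcm5 lower, DESeq2 called Mcm2 and Mcm5, and total scaling and limma voom each called Mcm5.

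Cdc6 and Cdt1, whose products load the helicase ring onto origins, both fell. Cdc6 (chromosome 11, 98907801 to 98923940), whose promoter window is shown above, had 27.1, 43.6, 9.59 and 11.5 CPM in the conditioned libraries, against 84.8 and 94.5 CPM in the controls. Its means were 22.96 ± 15.8 CPM in conditioned medium (SD, n = 4) and 89.6 ± 6.87 CPM in control medium (SD, n = 2), and the log2 fold change was -1.96 ± 0.59 (edgeR adjusted p = 0.0366). VpR99 was the highest conditioned library and still lay below both controls. Cdt1 (chromosome 8, 122568015 to 122573554) had 65.1, 73.5, 30.4 and 36.01 CPM in the conditioned libraries, against 121 and 117 CPM in the controls. Its log2 fold change was -1.21 ± 0.37 (edgeR adjusted p = 0.0376), and the groups did not overlap. The calls were lost, with the edgeR adjusted p in parentheses, for Cdc6 without VpR83 (0.0624), VpR2020 (0.0689), control 1 (0.126), control 2 (0.154) or the low-count filter (0.126), and for Cdt1 without VpR2020 (0.0779), control 1 (0.156), control 2 (0.149) or the low-count filter (0.0664).

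Cdc45 and Gins2 encode partners that turn the loaded ring into an active helicase. Cdc45 had 28.6, 51.9, 14.5 and 18.03 CPM in the conditioned libraries, against 73.6 and 71.7 CPM in the controls, all conditioned libraries below both controls. Gins2 had 22.2, 26.5, 8.36 and 12.2 CPM in the conditioned libraries, against 24.1 and 21.1 CPM in the controls, with VpR99 above both controls and VpR83 between them. Neither was called, at log2 fold changes of -1.36 for Cdc45 and -0.38 for Gins2 (edgeR adjusted p = 0.0622 and 0.521). Cdc45 was called lower with upper-quartile or total scaling, with DESeq2 and without VpR99. Exons of Ufd1 overlap Cdc45 and exons of Gse1 overlap Gins2 on the other strand.

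Genes for nucleotide supply and the polymerase clamp were not called in the main edgeR fit. Rrm1 and Rrm2 encode the subunits of ribonucleotide reductase, Tyms thymidylate synthase and Pcna the sliding clamp. Rrm2 had 114, 238, 47.3 and 52.4 CPM in the conditioned libraries, against 397 and 346 CPM in the controls, the second widest range over the lines among replication genes. Rrm1 had 236, 296, 83.05 and 127 CPM in the conditioned libraries, against 388 and 360.3 CPM in the controls. Tyms had 33.2, 43.9, 10.6 and 19.9 CPM in the conditioned libraries, against 76.95 and 71.7 CPM in the controls. In all 3 the groups did not overlap. Pcna had 269.9, 328, 158 and 142 CPM in the conditioned libraries, against 456 and 361 CPM in the controls, a narrow range over the lines with VpR2020 lowest. On the log2 scale, fold changes were -1.71 for Rrm2, -1.01 for Rrm1, -1.46 for Tyms and -0.87 for Pcna (edgeR adjusted p = 0.0706, 0.131, 0.0548 and 0.0981 in that order). Rrm2 and Tyms were called lower with upper-quartile or total scaling, DESeq2 or limma voom, and without VpR99. Tyms was also called without VpR126, and Pcna with upper-quartile scaling or without VpR99. Per kilobase of exon, Pcna averaged 93.5 CPM in conditioned medium and 170.3 CPM in control medium, and Rrm2 40.8 and 134 CPM, the highest levels per length among the 40 in control medium. A pseudogene copy of Pcna held at most 1.14% of the counts of Pcna in any library.

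E2f2, an activating E2F gene, had the largest log2 fold change of the 40. E2f2 (chromosome 4, 136172394 to 136196057) had 82.6, 138, 67.8 and 47.4 CPM in the conditioned libraries, against 340.3 and 323 CPM in the controls. VpR2020 was lowest, unlike in most members, and no conditioned library reached the controls. The means were 84.1 ± 39.01 CPM in conditioned medium (SD, n = 4) and 332 ± 12.1 CPM in control medium (SD, n = 2), and the log2 fold change was -1.98 ± 0.39 (edgeR adjusted p = 0.00889). This call was lost for E2f2 without control 1 (0.0585) or control 2 (0.0565), the edgeR adjusted p in parentheses. E2f1, which encodes another activating E2F, had 59.6, 55.6, 32.8 and 38.3 CPM in the conditioned libraries, against 69.1 and 62.5 CPM in the controls. Its range over the lines, 0.86 on the log2 scale, was the narrowest of all members, and it was not called (-0.50 ± 0.26, edgeR adjusted p = 0.169).

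The cyclin E genes, whose products activate CDK2 at the entry to S phase, and Uhrf1, whose product carries DNA methylation through replication, were not called. Ccne1 had 17.9, 34.5, 6.72 and 8.19 CPM in the conditioned libraries, against 59.8 and 58.1 CPM in the controls. That was the widest range over the lines, 2.35 on the log2 scale. Ccne2 had 22.5, 35.2, 9.34 and 10.1 CPM in the conditioned libraries, against 34.3 and 28.9 CPM in the controls, with VpR99 above both controls. Uhrf1 had 150.3, 179.6, 42.4 and 48.9 CPM in the conditioned libraries, against 279 and 269.6 CPM in the controls, with all conditioned libraries below the controls. Fitted log2 fold changes were -1.80 for Ccne1, -0.70 for Ccne2 and -1.38 for Uhrf1 (edgeR adjusted p = 0.058, 0.329 and 0.108 in that order). Ccne1 was called lower with upper-quartile or total scaling, DESeq2 or limma voom, and with VpR99 thinned or left out. Exons of Ints8 overlap Ccne2 on the other strand.

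**Figure D2:**
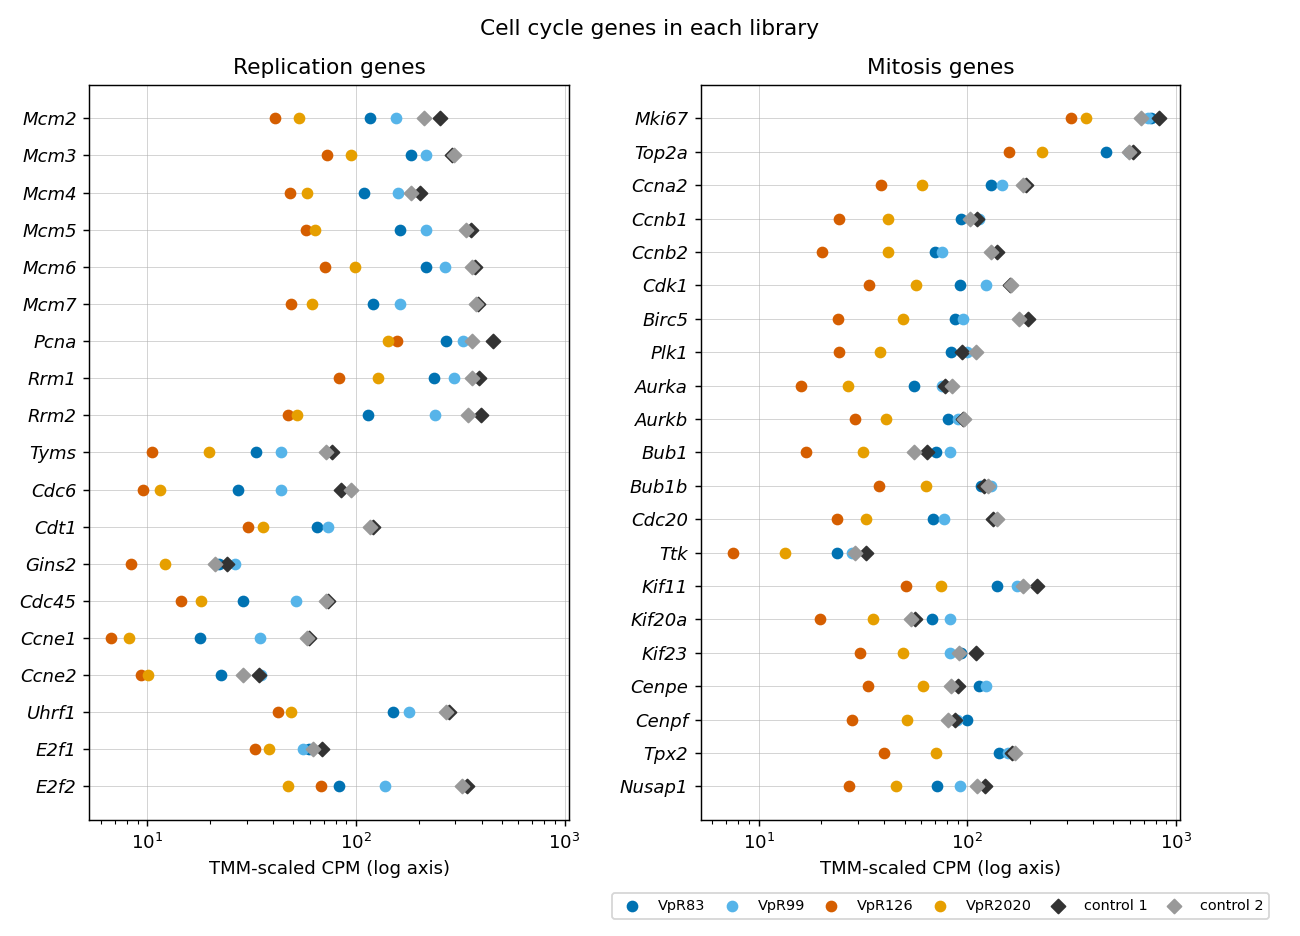
TMM-scaled CPM on a log axis for each replication gene (left panel) and mitosis gene (right panel), with circles for the 4 conditioned libraries and diamonds for the 2 controls. VpR126 and VpR2020 lie below VpR83 and VpR99 in all 40 genes, and VpR83 and VpR99 reach or pass the controls in Bub1, Kif20a, Cenpe and Cenpf.

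Among the mitosis genes, the survivin gene Birc5 and the checkpoint target Cdc20 fell. Birc5, whose product works in the chromosomal passenger complex with Aurora B, lies on chromosome 11, 117849251 to 117855743. It had 87.3, 95.3, 24.1 and 49.2 CPM in the conditioned libraries, against 196 and 177 CPM in the controls. The means were 64.00 ± 33.4 CPM in conditioned medium (SD, n = 4) and 186 ± 13.2 CPM in control medium (SD, n = 2), at -1.54 ± 0.50 on the log2 scale (edgeR adjusted p = 0.0466). VpR126 was lowest and the groups did not overlap. Cdc20, whose product activates the anaphase-promoting complex, lies on chromosome 4, 118432901 to 118437352. It had 68.6, 77.5, 23.7 and 32.5 CPM in the conditioned libraries, against 133 and 139 CPM in the controls, with means of 50.6 ± 26.4 CPM in conditioned medium (SD, n = 4) and 136 ± 4.59 CPM in control medium (SD, n = 2). Its log2 fold change was -1.43 ± 0.47 (edgeR adjusted p = 0.0489), and exons of Elovl1 overlap it on the other strand. Calls were lost, with the edgeR adjusted p in parentheses, for Birc5 without VpR83 (0.0535), VpR2020 (0.103), control 1 (0.181), control 2 (0.154) or the low-count filter (0.133), and for Cdc20 without VpR83 (0.0539), VpR2020 (0.0988), control 1 (0.163), control 2 (0.185) or the low-count filter (0.131). Both adjusted p lay close to 0.05, and over all alternatives they ran from 0.0165 to 0.181 for Birc5 and from 0.02 to 0.185 for Cdc20.

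The cyclins that drive mitosis and their kinase were lowest in VpR126 and were not called. Ccna2 and Ccnb1 and Ccnb2 encode cyclins A and B, and Cdk1 the kinase they activate. Ccna2 had 129, 147, 38.8 and 60.6 CPM in the conditioned libraries, against 191 and 186 CPM in the controls. Ccnb1 had 93.3, 114, 24.4 and 41.9 CPM in the conditioned libraries, against 111 and 103 CPM in the controls. Ccnb2 had 70.4, 75.7, 20.1 and 41.9 CPM in the conditioned libraries, against 138 and 130.5 CPM in the controls. VpR99 was above both controls in Ccnb1 but below both in Ccna2 and Ccnb2. Cdk1 had 91.99, 123, 33.9 and 56.6 CPM in the conditioned libraries, against 160.5 and 161 CPM in the controls, also without overlap of the groups. Conditioned over control, log2 fold changes were -1.001 for Ccna2, -0.64 for Ccnb1, -1.37 for Ccnb2 and -1.07 for Cdk1 (edgeR adjusted p = 0.157, 0.397, 0.0591 and 0.104 in that order). Ccnb2 was called lower with upper-quartile or total scaling, with DESeq2, and without VpR99 or VpR126. Cdk1 was called lower without VpR99. Exons of Exosc9 overlap Ccna2 on the other strand, and 4 pseudogenes resemble Ccnb1, of which the 2 in the count table held at most 0.549% of the counts of Ccnb1.

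Mki67, the antigen used to stain dividing cells, and Top2a, the topoisomerase that untangles chromosomes, were not called, and their groups overlapped. Mki67 had 762, 738, 312 and 372 CPM in the conditioned libraries, against 825 and 681 CPM in the controls, the narrowest range over the lines among mitosis genes, with VpR83 highest. Top2a had 462, 596, 159 and 228 CPM in the conditioned libraries, against 625 and 595 CPM in the controls. The log2 fold changes were -0.46 for Mki67 and -0.75 for Top2a (edgeR adjusted p = 0.385 and 0.267).

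Genes of the spindle kinases were not called. Aurka and Aurkb encode Aurora kinases, Plk1 a kinase of mitotic entry and Tpx2 an activator of Aurora A. Aurka had 55.4, 75.3, 16.01 and 26.9 CPM in the conditioned libraries, against 77.9 and 84.02 CPM in the controls, the second widest range over the lines among mitosis genes. Aurkb had 80.5, 90.4, 28.98 and 40.6 CPM in the conditioned libraries, against 95.7 and 96.9 CPM in the controls. Plk1 had 83.2, 99.3, 24.3 and 38.01 CPM in the conditioned libraries, against 94.1 and 110.2 CPM in the controls. The groups overlapped in Plk1 and not in the Aurora genes. Tpx2 had 142, 156, 39.96 and 70.5 CPM in the conditioned libraries, against 164 and 169 CPM in the controls, all conditioned libraries below both controls. On the log2 scale, fold changes were -0.90 for Aurka, -0.68 for Aurkb, -0.74 for Plk1 and -0.71 for Tpx2 (edgeR adjusted p = 0.237, 0.261, 0.302 and 0.3 in that order). The annotated gene Gm44985 overlaps Plk1 on the other strand.

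Spindle checkpoint genes Bub1, Bub1b and Ttk, whose kinases or pseudokinases delay anaphase until chromosomes are attached, were not called. Bub1 had 70.6, 82.95, 16.8 and 31.6 CPM in the conditioned libraries, against 63.9 and 55.4 CPM in the controls, the widest range over the lines among mitosis genes, and both VpR83 and VpR99 were above both controls. Bub1b had 117, 130.5, 37.9 and 63.3 CPM in the conditioned libraries, against 120.2 and 125 CPM in the controls, with VpR99 above both controls. Ttk had 23.6, 28.1, 7.52 and 13.3 CPM in the conditioned libraries, against 32.7 and 28.8 CPM in the controls, with all conditioned libraries below both. Fitted log2 fold changes were -0.24 for Bub1, -0.49 for Bub1b and -0.76 for Ttk (edgeR adjusted p = 0.765, 0.425 and 0.247 in that order).

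Kinesin genes differed in where VpR83 and VpR99 stood. Kif11 encodes the motor that separates spindle poles, and Kif20a and Kif23 motors of cytokinesis. Kif11 had 138, 173, 50.9 and 74.5 CPM in the conditioned libraries, against 216 and 185 CPM in the controls. Kif20a had 67.8, 82.7, 19.8 and 35.3 CPM in the conditioned libraries, against 56.3 and 53.6 CPM in the controls. Kif23 had 93.3, 82.6, 30.5 and 49.4 CPM in the conditioned libraries, against 110.3 and 90.98 CPM in the controls. Kif11 was below control in every conditioned library, whereas Kif20a was above both controls in VpR83 and VpR99. Conditioned over control, log2 fold changes were -0.88 for Kif11, -0.09 for Kif20a and -0.65 for Kif23 (edgeR adjusted p = 0.17, 0.898 and 0.252 in that order). Exons of Cdc23 overlap Kif20a on the other strand.

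Kinetochore genes Cenpe and Cenpf and the spindle gene Nusap1 were not called. Cenpe had 114, 123, 33.5 and 61.02 CPM in the conditioned libraries, against 89.9 and 83.1 CPM in the controls. Cenpf had 100.2, 88.8, 27.9 and 51.7 CPM in the conditioned libraries, against 87.4 and 81.2 CPM in the controls. In both of these genes VpR83 and VpR99 were above both controls. Nusap1, whose product binds spindle microtubules, had 71.7, 92.8, 27.2 and 45.4 CPM in the conditioned libraries, against 122 and 112 CPM in the controls, with all conditioned libraries below both controls. The log2 fold changes were -0.06 for Cenpe, -0.33 for Cenpf and -0.98 for Nusap1 (edgeR adjusted p = 0.931, 0.6 and 0.118 in that order). Nusap1 was called lower without VpR99. Exons of Oip5 overlap Nusap1 on the other strand.

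The mitosis genes exceeded the replication genes in every conditioned library when both were set against control. Mean log2 level relative to control, mitosis minus replication, was 0.69 in VpR83, 0.41 in VpR99, 0.29 in VpR126 and 0.74 in VpR2020, against -0.015 and 0.015 in the controls. Summed over members, mitosis genes came to 1.43, 1.2, 1.16 and 1.48 times the CPM of replication genes in the conditioned libraries, against 0.87 and 0.873 times in the controls. The sums of replication genes were 2041, 2721, 861 and 1004 CPM in the conditioned libraries, against 4263 and 3950 CPM in the controls. The sums of mitosis genes were 2923, 3271, 998 and 1485 CPM, against 3710 and 3447 CPM. These sums are not scaled for gene length, so they compare libraries and not lists. The conditioned ratios did not overlap the control ratios, and no test was made of a score over the members.

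Replication factors outside the 19 were lower too. Of 29 further replication genes, 15 fell (51.7%) and 0 rose, where 19.7% and 22.5% of all genes did. The other 14 were not called, and the list's median log2 fold change was -1.236. At an unadjusted p under 0.05, 0 of the 29 were higher and 21 lower. DESeq2 and limma voom called 17 and 15 of them lower and 0 higher. Over all genes DESeq2 called 3588 of 19522 lower and limma voom 3245 of 15141. Dut, whose enzyme removes dUTP, had 29.2, 62.2, 13.7 and 16.9 CPM in the conditioned libraries, against 149 and 149 CPM in the controls, at -2.28 ± 0.57 on the log2 scale (edgeR adjusted p = 0.0208). Rfc4, of the clamp loader, had -1.86 ± 0.43 (edgeR adjusted p = 0.0155), and Rpa2, which coats single strands, -1.77 ± 0.39 (edgeR adjusted p = 0.0139). In these 3 genes no conditioned library reached the controls. The count of 15 was 1 without control 1 and 1 without control 2. Lost calls, with the edgeR adjusted p in parentheses, were Dut without control 1 (0.0945), control 2 (0.0961) or the low-count filter (0.0834); Rfc4 without control 1 (0.0828) or control 2 (0.0846); and Rpa2 without control 1 (0.0786) or control 2 (0.0794). Without VpR99 the log2 fold change of Dut was -2.895.

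Of 37 further mitosis genes, 4 fell (10.8%) and 0 rose, where 19.7% and 22.5% of all genes did. The other 33 were not called. The list's median log2 fold change was -0.788, and 34 of the 37 fold changes were below 0. At an unadjusted p under 0.05, 9 of the 37 were lower and 0 higher. DESeq2 and limma voom called 7 and 5 of them lower and 0 higher, against 3588 of 19522 and 3245 of 15141 genes called lower over all. Spc24, of the kinetochore's NDC80 complex, had 17.6, 22.9, 5.28 and 7.41 CPM in the conditioned libraries, against 56.7 and 53.3 CPM in the controls, at -2.04 ± 0.56 on the log2 scale (edgeR adjusted p = 0.0275). Kif22, a chromosome kinesin, had -1.50 ± 0.40 (edgeR adjusted p = 0.0257), and Cenpa, the centromere histone, -1.15 ± 0.27 (edgeR adjusted p = 0.0161). The fourth gene called, Bub3, had -0.73 ± 0.22 (edgeR adjusted p = 0.0363). Lost calls, with the edgeR adjusted p in parentheses, were Spc24 without VpR2020 (0.0575), control 1 (0.122), control 2 (0.111) or the low-count filter (0.0823); Kif22 without VpR2020 (0.0608), control 1 (0.107), control 2 (0.129) or the low-count filter (0.0556); Cenpa without control 1 (0.105) or control 2 (0.0823); and Bub3 without VpR83 (0.0594), VpR2020 (0.0851), control 1 (0.133), control 2 (0.193) or the low-count filter (0.0521).

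**Figure D3:**
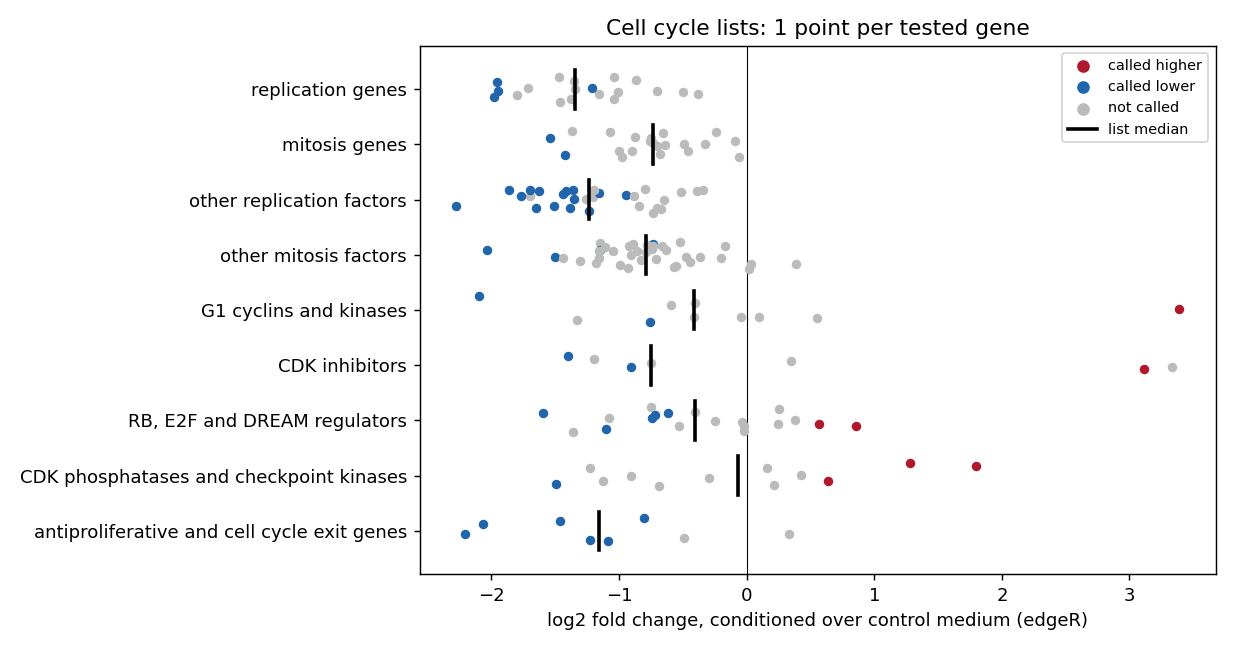
Fold changes on the log2 scale, conditioned over control medium, for each tested gene of the 9 cell cycle lists, with red points called higher, blue points called lower, grey points not called and black bars for list medians. The medians lie at -1.345 for the replication genes and -1.236 for the other replication factors, against -0.74 for the mitosis genes and -0.788 for the other mitosis factors, and the grey CDK inhibitor point at far right is Cdkn2b, which had 2 counts and 0 counts in the controls.

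The G1 cyclins and kinases, which act before S phase, held genes that moved in opposite directions. Of 10 tested, 1 rose (10%) and 2 fell (20%), against 22.5% and 19.7% of all genes. The list's median log2 fold change was -0.412. Ccnd1, encoding cyclin D1, had 177, 174, 43.2 and 57.5 CPM in the conditioned libraries, against 9.37 and 12.2 CPM in the controls, at 3.39 ± 0.75 on the log2 scale (edgeR adjusted p = 0.0133). All conditioned libraries were above both controls, VpR83 and VpR99 most. Ccnd3, encoding cyclin D3, had 77.9, 199.8, 104 and 64.6 CPM in the conditioned libraries, against 453 and 503 CPM in the controls, at -2.10 ± 0.43 on the log2 scale (edgeR adjusted p = 0.0109). Cdk2, the kinase partner of cyclin E, had 70.7, 78.3, 44.3 and 56.4 CPM in the conditioned libraries, against 105 and 106 CPM in the controls, at -0.76 ± 0.23 on the log2 scale (edgeR adjusted p = 0.0387). The groups did not overlap in these 3 genes. Lost calls, with the edgeR adjusted p in parentheses, were Ccnd1 without control 1 (0.105), control 2 (0.085) or the low-count filter (0.0545); Ccnd3 without control 1 (0.0576) or control 2 (0.0707); and Cdk2 without VpR83 (0.0559), VpR2020 (0.0912), control 1 (0.161), control 2 (0.175) or the low-count filter (0.0524).

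The other G1 genes were not called. Ccnd2, encoding cyclin D2, had 61.6, 119, 43.2 and 48.8 CPM in the conditioned libraries, against 43.3 and 49.9 CPM in the controls, with VpR99 highest. Cdk4 had 202, 188, 98.8 and 178 CPM in the conditioned libraries, against 206 and 239 CPM in the controls, and its partner kinase Cdk6 had 118, 201, 83.9 and 55.8 CPM in the conditioned libraries, against 105 and 110.3 CPM in the controls. Myc had 53.4, 86.03, 19.2 and 21.9 CPM in the conditioned libraries, against 58.1 and 78.2 CPM in the controls. Conditioned libraries lay on both sides of the controls in Ccnd2, Cdk6 and Myc, and also in Cdk7 and Mycn, given next. Cdk7 had 27.7, 32.9, 27.8 and 28.5 CPM in the conditioned libraries, against 29.2 and 31.2 CPM in the controls, and its cyclin Ccnh had 26.3, 30.03, 23.02 and 26.2 CPM in the conditioned libraries, against 35.4 and 34.6 CPM in the controls. Mycn was near 1 CPM, with 0.1098, 0.316, 1.39 and 0.221 CPM in the conditioned libraries, against 1.300 and 1.22 CPM in the controls. On the log2 scale, fold changes were 0.55 for Ccnd2, -0.42 for Cdk4, 0.09 for Cdk6, -0.05 for Cdk7, -0.41 for Ccnh, -0.59 for Myc and -1.33 for Mycn (edgeR adjusted p = 0.328, 0.278, 0.887, 0.807, 0.0734, 0.459 and 0.264 in that order). Ccnh was called lower with upper-quartile or total scaling or without VpR99, and Mycn without VpR126.

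Of 7 CDK inhibitor genes tested, 1 rose (14.3%) and 2 fell (28.6%), against 22.5% and 19.7% of all genes. The list's median log2 fold change was -0.75. Cdkn1a, encoding p21, had 152, 261, 357 and 218 CPM in the conditioned libraries, against 44.7 and 12.5 CPM in the controls. Its means were 247 ± 85.98 CPM in conditioned medium (SD, n = 4) and 28.6 ± 22.7 CPM in control medium (SD, n = 2), at 3.11 ± 0.63 on the log2 scale (edgeR adjusted p = 0.01). VpR126, the library lowest in most members, was highest in Cdkn1a, and the call held in every alternative, with adjusted p of 2.18e-07 to 0.042. The size rested on the controls, at 4.301 on the log2 scale without control 1 and 2.485 without control 2. Cdkn1b, encoding p27, fell, with 72.8, 58.9, 65.9 and 79.5 CPM in the conditioned libraries, against 152 and 108 CPM in the controls and a fold change of -0.91 ± 0.19 on the log2 scale (edgeR adjusted p = 0.0107). Cdkn2d, encoding p19 of the INK4 family, fell, with 41.8, 72.3, 36.3 and 30.04 CPM in the conditioned libraries, against 121 and 118 CPM in the controls and a fold change of -1.40 ± 0.34 on the log2 scale (edgeR adjusted p = 0.0178). Lost calls, with the edgeR adjusted p in parentheses, were Cdkn1b without control 1 (0.107), and Cdkn2d without control 1 (0.0954) or control 2 (0.0933).

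The other inhibitor genes were not called. Cdkn2c, also of the INK4 family, had 58.5, 41.4, 20.99 and 29.7 CPM in the conditioned libraries, against 65.6 and 61.1 CPM in the controls. Cdkn3, a phosphatase of CDKs, had 18.6, 22.4, 6.72 and 13.1 CPM in the conditioned libraries, against 35.5 and 34.4 CPM in the controls. Both had all conditioned libraries below the controls, with log2 fold changes of -0.75 for Cdkn2c and -1.19 for Cdkn3 (edgeR adjusted p = 0.152 and 0.0634). Cdkn3 was called lower with upper-quartile or total scaling, with DESeq2, and without VpR99 or VpR126. Cdkn2c was called lower without VpR83. Cdkn1c, encoding p57, was near 1 CPM, with 0.915, 0.324, 2.704 and 0.609 CPM in the conditioned libraries, against 0.733 and 1.03 CPM in the controls (0.35, edgeR adjusted p = 0.764). Cdkn2b had 0.659, 0.178, 0.634 and 0.221 CPM in the conditioned libraries, against 0.0667 and 0.0 CPM in the controls, 2 counts and 0 counts, so no fold is given (edgeR adjusted p = 0.0529). Cdkn2b was called higher without the filter, with DESeq2 and without VpR99. Cdkn2a did not pass the filter.

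Of 19 further RB, E2F and DREAM genes, whose products hold back or drive the members, 5 fell (26.3%) and 2 rose. Of all genes 19.7% fell and 22.5% rose, so the share of the list that rose was under the background. The list's median log2 fold change was -0.403. Tfdp2, a partner of E2F proteins, had 24.1, 15.4, 21.8 and 20.3 CPM in the conditioned libraries, against 75.1 and 47.9 CPM in the controls (-1.59 ± 0.24, edgeR adjusted p = 0.00381). E2f4, a repressive E2F, had 69.4, 89.9, 59.7 and 52.3 CPM in the conditioned libraries, against 141 and 150.2 CPM in the controls (-1.10 ± 0.22, edgeR adjusted p = 0.00962). E2f5, also of the repressive kind, rose, with 6.48, 4.43, 5.91 and 5.97 CPM in the conditioned libraries, against 3.03 and 3.24 CPM in the controls (0.86 ± 0.28, edgeR adjusted p = 0.0457, and 0.00981 to 0.228 over the alternatives). The call of Tfdp2 held with every library left out. Those of other genes were lost, with the adjusted p in parentheses (edgeR unless limma voom is named), for E2f4 without control 1 (0.0594) or control 2 (0.0772), and for E2f5 without VpR83 (0.103), VpR126 (0.0536), VpR2020 (0.0897), control 1 (0.228), control 2 (0.175) or the low-count filter (0.094), and with RLE scaling (0.0521), total scaling (0.115), limma voom (0.0818), upper-quartile scaling (0.104). The B-MYB gene Mybl2 and Foxm1 were not called, at log2 fold changes of -1.36 and -0.25 (edgeR adjusted p = 0.124 and 0.671). Mybl2 was called lower without VpR99.

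Of 12 CDK phosphatase and checkpoint genes, 3 rose (25%) and 1 fell (8.33%), against 22.5% and 19.7% of all genes. The list's median log2 fold change was -0.068. Ccng1, a p53 target encoding cyclin G1, had 189, 219, 211 and 258 CPM in the conditioned libraries, against 65.5 and 60.9 CPM in the controls, the smallest adjusted p of this list (1.80 ± 0.18, edgeR adjusted p = 0.00114). Atm, a kinase of the DNA break response, had 38.1, 36.9, 27.3 and 31.1 CPM in the conditioned libraries, against 14.4 and 13.1 CPM in the controls (1.28 ± 0.20, edgeR adjusted p = 0.00405). Mdm2, also a p53 target, rose as well (0.64 ± 0.19, edgeR adjusted p = 0.0333). Cdc25a, the phosphatase that activates CDK2, fell, with 29.2, 48.6, 22.1 and 19.4 CPM in the conditioned libraries, against 80.6 and 88.1 CPM in the controls (-1.50 ± 0.36, edgeR adjusted p = 0.0179). Calls of Ccng1 and Atm held with every library left out, and calls were lost, with the edgeR adjusted p in parentheses, for Mdm2 without VpR99 (0.0511), control 1 (0.108) or control 2 (0.201), and with total scaling (0.106), upper-quartile scaling (0.0882), and for Cdc25a without control 1 (0.084) or control 2 (0.105).

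Of 8 antiproliferative and cell cycle exit genes tested, 6 fell (75%) and 0 rose, with a median log2 fold change of -1.156, where 19.7% of all genes fell. The count of 6 was 2 without control 1 and 4 without control 2. At an unadjusted p under 0.05, 6 of them were lower and 0 higher, and DESeq2 and limma voom each called 6 lower and 0 higher. Over all genes DESeq2 called 3588 of 19522 lower and limma voom 3245 of 15141. Klf4 had 24.5, 39.5, 19.6 and 18.9 CPM in the conditioned libraries, against 177 and 60.3 CPM in the controls (-2.21 ± 0.47, edgeR adjusted p = 0.0116). Btg2 had 122, 84.4, 97.5 and 112 CPM in the conditioned libraries, against 522 and 351 CPM in the controls (-2.07 ± 0.22, edgeR adjusted p = 0.0013). Pdcd4 had 22.7, 30.3, 36.8 and 44.9 CPM in the conditioned libraries, against 89.05 and 96.7 CPM in the controls (-1.46 ± 0.26, edgeR adjusted p = 0.0063). No conditioned library reached the controls in these 3 genes. The call of Btg2 held with every library left out, and calls were lost, with the edgeR adjusted p in parentheses, for Klf4 without control 1 (0.106), where the log2 fold change was -1.235, and for Pdcd4 without control 2 (0.0546). Gas1 did not pass the filter.

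**Figure D4:**
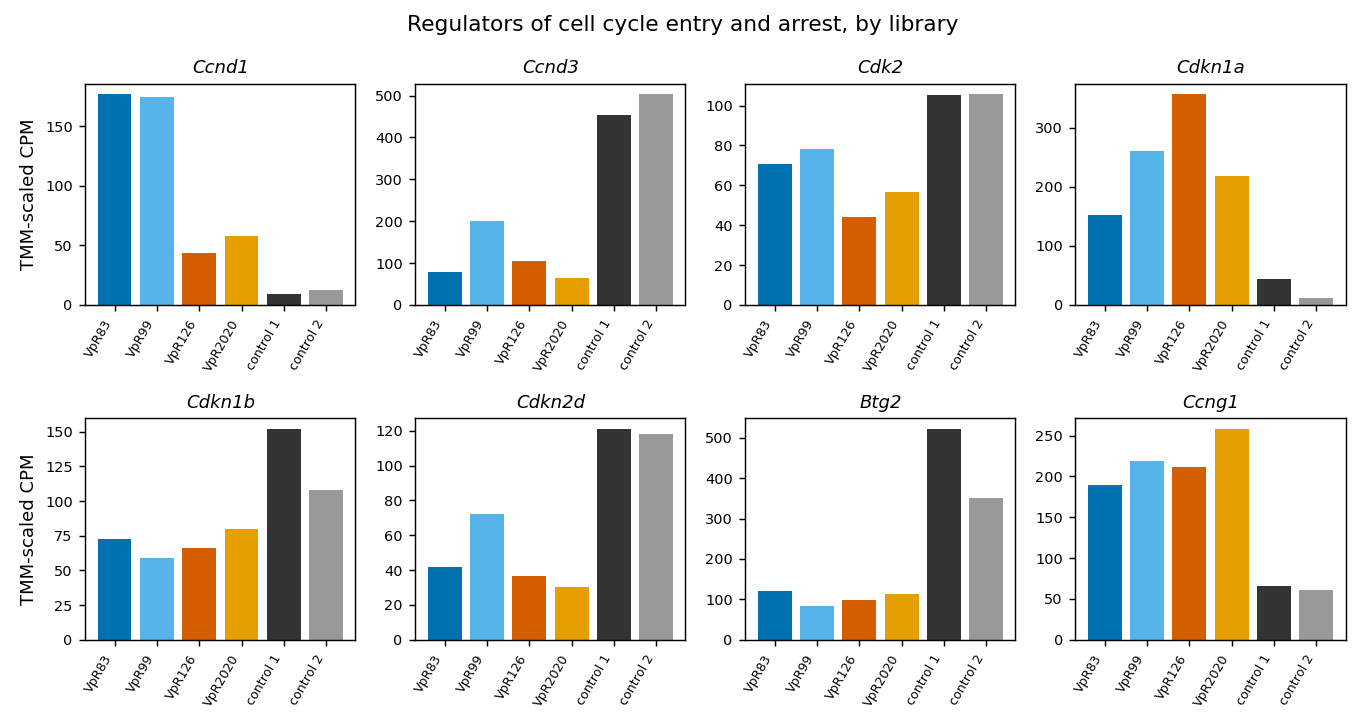
TMM-scaled CPM of 8 called regulators in each library on linear axes from 0, conditioned libraries by line on the left and controls on the right, each bar 1 library without an error bar. All conditioned bars stand above both controls in Ccnd1, Cdkn1a and Ccng1, and below both in Ccnd3, Cdk2, Cdkn1b, Cdkn2d and Btg2.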

How the data were processed

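The authors deposited 1 table of raw read counts per Ensembl gene for 6 libraries from mouse bone marrow. Reads were trimmed with Trimmomatic 0.38 and aligned with STAR 2.5.2b to GRCm38, per the submitters' processing notes. RNA was sequenced as stranded total RNA libraries, per the labels' protocols. The tool and strand setting of the counting and its annotation are not stated in the sources, so members that overlap another gene on the opposite strand (9 of 40) or have a near-identical copy (8 of 40) are less certain. Named genes of the other cell cycle lists that overlap a gene on the opposite strand are less certain too. They are Rfc4, Kif22, Ccnd1, Ccnd3, Cdk2, Cdkn1a and E2f5 among those called, and Ccnd2, Cdk4, Cdk6, Ccnh and Cdkn1c among those not called. Gene symbols, coordinates and exon lengths came from GENCODE M21 on GRCm38.

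Counts were fitted with edgeR 4.0.16 in R 4.3.3 (robust quasi-likelihood test, filterByExpr defaults, TMM scaling, conditioned against control medium, two-sided, Benjamini-Hochberg over 15141 genes, threshold 0.05). Standard errors were taken as the size of the log2 fold change over the square root of F. Line-by-line log2 CPM used a prior count of 2. Alternatives were RLE, upper-quartile and total scaling, no filter, DESeq2 1.42.0, limma 3.58.1 voom, no robust estimation, VpR99 thinned to 25714176 counts and each library left out. The fit was tested on simulated counts with a small set of genes changed, as many raised as lowered. A shift of composition as large as in these libraries was not simulated. The members and lists were chosen with earlier results of these data known, so no test over a list was made. All 40 members are given, with the 3 called genes of largest fold change in each other list and every tested G1 and CDK inhibitor gene; Bub3, Mdm2, Mybl2 and Foxm1 were added after their values were seen.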

Additional observations from a re-analysis of the deposited data

Results flagged for a closer look

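In 8 members, conditioned libraries stood on opposite sides of both controls. Each line had 1 library, so the difference between lines was not tested, and the size given is the range over the 4 lines on the log2 scale.

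VpR83 and VpR99 lay above both controls, and VpR126 and VpR2020 below both, in 4 mitosis genes. The range was 2.299 for Bub1, 2.062 for Kif20a, 1.877 for Cenpe and 1.841 for Cenpf. VpR99 alone lay above both controls in Ccnb1 (2.226), in Bub1b (1.782) and in the replication gene Ccne2 (1.908), with the other 3 lines below both. In Gins2 (1.657) VpR99 lay above both controls, VpR126 and VpR2020 below both, and VpR83 between them.

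VpR99 also had the most counts and the highest sum of neutrophil precursor markers, at 2652 CPM, against 439 to 594 CPM in the other conditioned libraries. Late neutrophil markers were highest in VpR99 as well (16960 CPM). Sums of erythroid (5.24 CPM), stem and progenitor (109 CPM), B cell precursor (337 CPM) and T and NK cell markers (11.2 CPM) were instead highest in VpR126. Stem and progenitor and B cell precursor markers were lowest in VpR83 (44.4 and 44.8 CPM). The part of any of these marker lists in the members' ranges was not tested. Within the 4 conditioned libraries, 0 of the 40 members held a library that stood apart by Dixon's criterion, where chance flags about 1 group in 20.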

How the results depend on the processing

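The number of replication genes called lower was 4 and became 12 with upper-quartile scaling, 9 with library totals, 1 without a low-count filter, 10 with DESeq2 and 8 with limma voom. Over all 15141 genes, 2983 were called lower in the main fit, 4104 with upper-quartile scaling, 4171 with library totals and 3245 with limma voom. Without a filter 2845 of 29681 genes were called lower, and with DESeq2 3588 of 19522. The number of mitosis genes called lower was 2 and became 0 without a filter, where 29681 genes were tested. The other cell cycle lists had 7 genes called higher, and 4 with upper-quartile scaling or with library totals, and 24 of their genes were called lower without a filter, against 35 with it. These scalings moved the median of all genes to -0.221 and -0.256 and the higher share of calls to 40% and 38.6%, against 53.3% with TMM. All 6 called members stayed called under RLE, upper-quartile and total scaling, DESeq2, limma voom, no robust estimation and thinning of VpR99, and only E2f2 without a filter.

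Leaving out 1 library at a time, replication genes called lower ran from 0 to 13, mitosis genes from 0 to 5, all genes called from 2201 to 7031, and the other lists from 3 to 7 higher and from 4 to 49 lower. The list medians ran from -1.722 to -1.089 (replication) and from -1.046 to -0.461 (mitosis). A control left alone was assumed to vary like the conditioned libraries. Bub1, Kif20a and Cenpe, not called, turned to 0.063, 0.186 and 0.213 without VpR126, and Kif20a and Cenpe to 0.059 and 0.072 without VpR2020. In no alternative did a called value change sign. Mitosis minus replication ran from 0.672 to 0.703 in VpR83, 0.397 to 0.428 in VpR99, 0.274 to 0.305 in VpR126 and 0.727 to 0.757 in VpR2020 when 1 control was left out; other scalings cannot move it. The cause of these shifts was not tested. With promoter windows that began 150 bases before the start, E2F letters stood in 7 and 1 genes and CHR letters in 3 and 13. No paired analysis was possible because the conditioned libraries carry line names and no replicate numbers shared with the controls.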
